A study of Homo sapiens with 12 samples.

Results

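A bidirectional promoter is a stretch of DNA from which 2 genes are transcribed in opposite directions. Here it was taken as a pair of protein-coding genes on opposite strands, transcribed away from each other, whose most 5′ annotated ends (GENCODE on GRCh37) lay at most 1 kb apart on chromosomes 1 to 22 and X. The rule used the annotation alone and no measured value. It gave 883 pairs with 1703 genes, which is 8.47% of the 20098 protein-coding genes on these chromosomes. The pairs fell into 821 separate loci, since 121 pairs shared a gene with another pair, and 79 pairs included a readthrough gene. The starts of a pair lay a median of 131 bp apart (quartiles 69 and 247 bp, range 1 to 995 bp), and 714 pairs were at most 300 bp apart. The nearest pair outside the limit was 1008 bp apart.

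The cells were BON1, an established human pancreatic neuroendocrine tumor line. H3K4me3, trimethylation of lysine 4 on histone H3, was mapped by CUT&RUN, in which a nuclease tethered to the antibody cuts out the bound chromatin for sequencing. The control line is labelled BON1/TGL/pQ. The other line, BON1/TGL/HA-Bcl-xL, overexpressed the apoptosis inhibitor Bcl-xL with an HA tag; 500000 cells were used per condition, and both lines were grown with puromycin. A rabbit anti-mouse IgG reaction measured the background of the assay in each line. What TGL and pQ stand for, and whether either line was 1 clone, is not given in the sources used here. Of 12 labelled samples, 11 gave a peak list. These were 3 control and 2 HA-Bcl-xL libraries (replicates 2 and 3) with H3K4me3, and 3 libraries of each line with IgG. Replicate 1 of H3K4me3 in HA-Bcl-xL cells is not analysed here.

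H3K4me3 marks nucleosomes next to active transcription start sites and is usually strongest over the first nucleosomes inside the gene, while the start itself is depleted of nucleosomes. At a bidirectional promoter both genes share a single nucleosome-depleted stretch, so that marked nucleosomes can lie on either flank. Such promoters are known to be GC-rich, mostly lack a TATA box, and often drive housekeeping, DNA repair and mitochondrial genes.

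The stretch between the starts is short enough to print whole for most pairs. The following were chosen because the results below turn on them. ERCC8/NDUFAF2, HSPB6/PROSER3 and RSRP1/TMEM50A were among the highest-ranked or most peak-rich pairs. ZNF668/ZNF646 and TMEM258/FEN1 had peaks at several positions, PATL2/B2M had its summits on the side of 1 gene, and TK1/AFMID held a TATA box between its starts. COL4A4/COL4A3 had no peak, and C10orf88/PSTK had peaks in HA-Bcl-xL cells only. Each is the GRCh37 plus strand, 5′ to 3′, from the base after the start of the minus-strand gene (named first) to the base before the start of the plus-strand gene. Capitals mark matches to the ETS motif CCGGAAGT, the NRF1 motif GCATGCGC, the YY1 motif AAGATGGCG, the CCAAT box, the GC box GGGCGG and the TATA box TATAAA, on either strand.
ERCC8/NDUFAF2, chr5:60240901-60241003: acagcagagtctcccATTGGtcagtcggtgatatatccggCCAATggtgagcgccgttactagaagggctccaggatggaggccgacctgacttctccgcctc
HSPB6/PROSER3, chr19:36248981-36249043: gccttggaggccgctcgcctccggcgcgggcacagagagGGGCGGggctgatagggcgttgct
RSRP1/TMEM50A, chr1:25664705-25664807: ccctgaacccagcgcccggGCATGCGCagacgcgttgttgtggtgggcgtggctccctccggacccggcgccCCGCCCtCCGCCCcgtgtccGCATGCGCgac
ZNF668/ZNF646, chr16:31085562-31085742: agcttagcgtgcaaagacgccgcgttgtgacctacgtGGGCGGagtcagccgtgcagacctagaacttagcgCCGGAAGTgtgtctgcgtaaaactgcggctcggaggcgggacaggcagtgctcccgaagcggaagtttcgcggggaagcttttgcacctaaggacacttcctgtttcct
TMEM258/FEN1, chr11:61560275-61560382: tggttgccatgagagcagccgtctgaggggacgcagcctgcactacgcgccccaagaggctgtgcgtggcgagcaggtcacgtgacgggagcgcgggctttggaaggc
PATL2/B2M, chr15:45003522-45003555: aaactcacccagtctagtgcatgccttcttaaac
TK1/AFMID, chr17:76183315-76183438: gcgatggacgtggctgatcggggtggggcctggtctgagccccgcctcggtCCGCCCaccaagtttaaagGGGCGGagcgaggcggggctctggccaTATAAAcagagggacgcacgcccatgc
COL4A4/COL4A3, chr2:228029170-228029339: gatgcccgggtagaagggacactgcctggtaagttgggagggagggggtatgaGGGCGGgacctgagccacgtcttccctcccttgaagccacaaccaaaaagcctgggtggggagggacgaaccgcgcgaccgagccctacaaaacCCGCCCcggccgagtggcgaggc
C10orf88/PSTK, chr10:124713828-124713896: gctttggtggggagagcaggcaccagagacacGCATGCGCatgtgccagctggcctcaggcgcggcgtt

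The lists give no read totals, so the depth behind each is unknown, and the number of peaks stands in for it below. On the chromosomes used, the control H3K4me3 lists held 17687, 12138 and 10237 peaks (replicates 1 to 3), and the HA-Bcl-xL lists 16363 and 15478 (replicates 2 and 3). The IgG lists held 1665 to 2106 peaks in control cells and 239 to 262 in HA-Bcl-xL cells. Of the neuroendocrine marker genes examined, CHGB and SCG2, granins of secretory granules, had a peak within 1 kb of their start in all 5 H3K4me3 libraries, SYP in 2 and CHGA in 1. ENO2, INSM1 and NCAM1 had none there, nor did the leukocyte marker PTPRC and the fibroblast marker COL1A1. Within 5 kb, INSM1 had a peak in all 5, ENO2 and COL1A1 in 1 each, and NCAM1 and PTPRC in 0.

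Most bidirectional promoters carried H3K4me3 in BON1 cells. A pair was called marked in a library when at least 1 bp of a peak fell in its window, from 1 kb inside 1 gene across both starts to 1 kb inside the other. In control cells 728, 637 and 554 of the 883 pairs were marked in replicates 1 to 3 (82.4%, 72.1% and 62.7%). In HA-Bcl-xL cells 703 and 662 pairs were marked in replicates 2 and 3 (79.6% and 75.0%). The share followed the order of the number of peaks in the lists, and both HA-Bcl-xL values lay inside the control range. The windows held 6.75 to 7.38% of the peaks of each H3K4me3 list. A marked pair had 1.43 to 1.86 peaks on average.

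**Figure D1:**
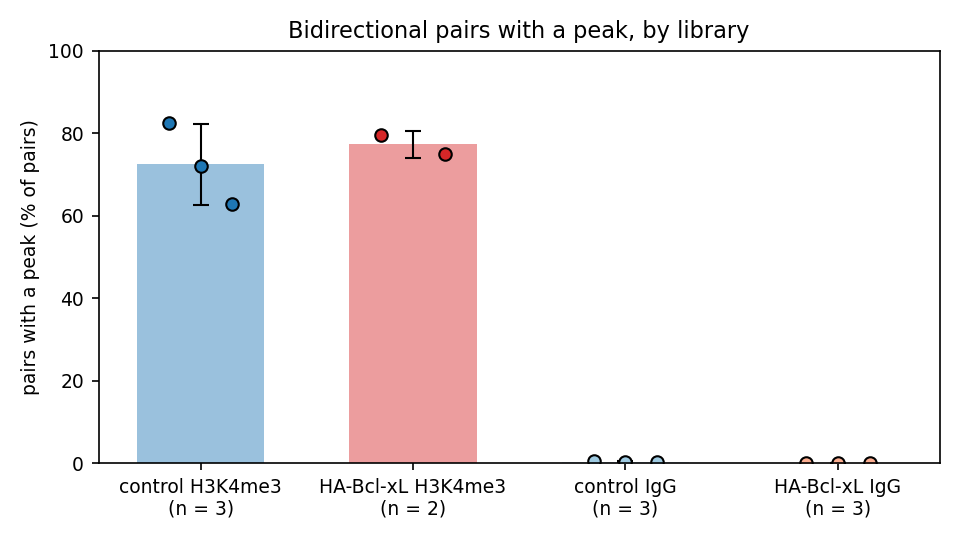
Share of the 883 bidirectional pairs with a peak in their window (y axis, percent) in each library, by group. Bars are group means, error bars 1 SD and points single libraries; H3K4me3 libraries lie between 62.7% and 82.4% and IgG libraries between 0 and 0.566%.

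With IgG, 5, 3 and 2 pairs were marked in control replicates 1 to 3, and 0 of 883 pairs in each HA-Bcl-xL library, which allows a share of up to 0.340% (3 counts, counting error only). The share of marked pairs was higher with H3K4me3 than with IgG by 72.1 percentage points in control cells (two-sided exact permutation test, p = 0.1, the smallest it allows with 3 libraries against 3; Benjamini-Hochberg adjusted over the 7 tests made, 0.233). In HA-Bcl-xL cells it was higher by 77.3 percentage points (exact permutation test, p = 0.2, the smallest for 2 against 3; adjusted 0.28). H3K4me3 and IgG libraries did not overlap in either line. With the lists of a line cut to the length of its own shortest IgG list, 1665 peaks for control and 239 for HA-Bcl-xL, the differences were 19.4 and 2.83 percentage points. No pair was marked in more than 1 IgG library. The 10 pairs marked in 1 were EMC1/MRTO4, ZNF214/NLRP14, HPS5/GTF2H1, ATG2B/GSKIP, NRG4/TMEM266, TMX3/CCDC102B, LYPD4/DMRTC2, TMEM127/CIAO1, RARS2/ORC3 and ATAD2/NTAQ1.

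The same pairs tended to be marked across libraries. All 5 H3K4me3 libraries marked 485 pairs (54.9%), 4 marked 124, 3 marked 69, 2 marked 53, 1 marked 50 and none marked 102 (11.6%). Over all protein-coding genes, 21.4% had a peak within 1 kb of their start in every library, and 13.2% of solitary genes did, which are those with no other annotated gene start within 5 kb. Measured in this same way, 889 of the 1703 genes of the pairs (52.2%) had one. The distance between the starts differed little between these classes, with a median of 124 bp for pairs marked in all 5 libraries, 139 bp for those marked in 1 to 4 and 141 bp for those marked in none.

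Because a pair window is longer than the window of a single gene and covers 2 starts, paired and solitary genes were also compared over the same length, the first 1 kb inside the gene. A peak lay there in 53.2% ± 8.06 (SD, n = 5 libraries) of the genes of the pairs. It did so in 21.0% ± 3.59 of 10307 solitary genes. For 1408 genes whose divergent partner within 1 kb was a noncoding RNA gene, the share was 41.7% ± 7.37. Paired genes exceeded solitary genes by 32.2 percentage points on average (25.7 to 37.9), in 5 of 5 libraries (two-sided exact permutation test that swaps the values within each library, p = 0.0625, the smallest it allows; adjusted 0.219). They exceeded genes with a noncoding partner by 11.5 percentage points. Counting only peaks with their summit in that 1 kb gave a difference from solitary genes of 20.9 percentage points.

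**Figure D2:**
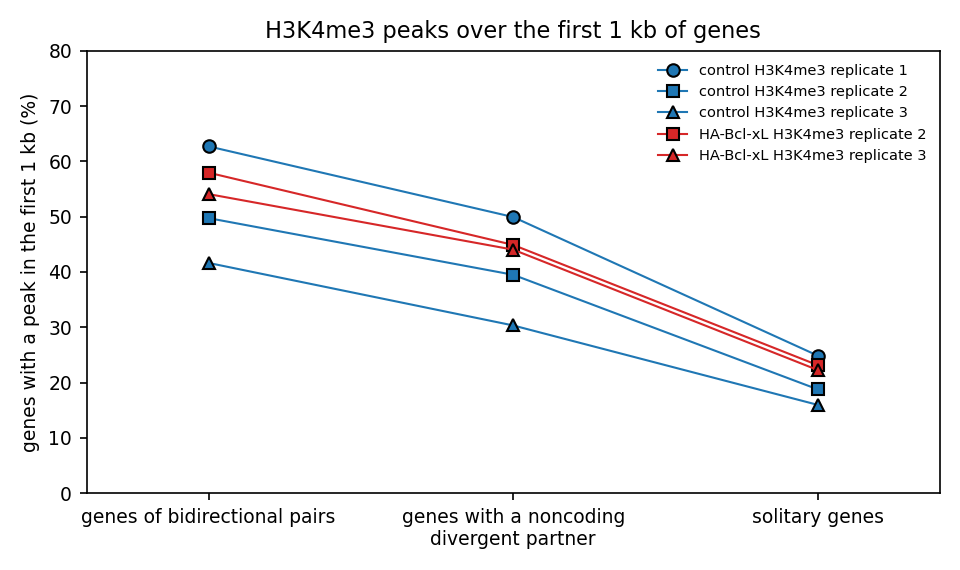
Share of genes with an H3K4me3 peak in their first 1 kb (y axis, percent) for genes of bidirectional pairs, genes with a noncoding divergent partner and solitary genes; each line is 1 library. In each of the 5 libraries the order was the same, with the pairs between 41.6% and 62.7% and solitary genes between 16.0% and 24.9%.

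The promoters of the pairs also differed from solitary promoters in sequence. Within 500 bp of the start, the median GC content was 61.6% for the genes of the pairs and 57.3% for solitary genes, and the median ratio of observed to expected CpG was 0.781 against 0.594. Marking varied with GC content in both classes. Of paired genes, 31.6% ± 6.20 (SD, n = 5) were marked over the first 1 kb in the lowest of 5 equal GC classes of all genes, 61.5% ± 6.24 in the middle class and 41.2% ± 9.60 in the highest. Solitary genes in the same classes reached 4.82% ± 0.757, 33.1% ± 4.87 and 21.3% ± 5.42. The paired genes were the higher in each of the 5 classes, and the difference averaged over them, weighted by their numbers of paired genes, was 26.0 percentage points.

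**Figure D3:**
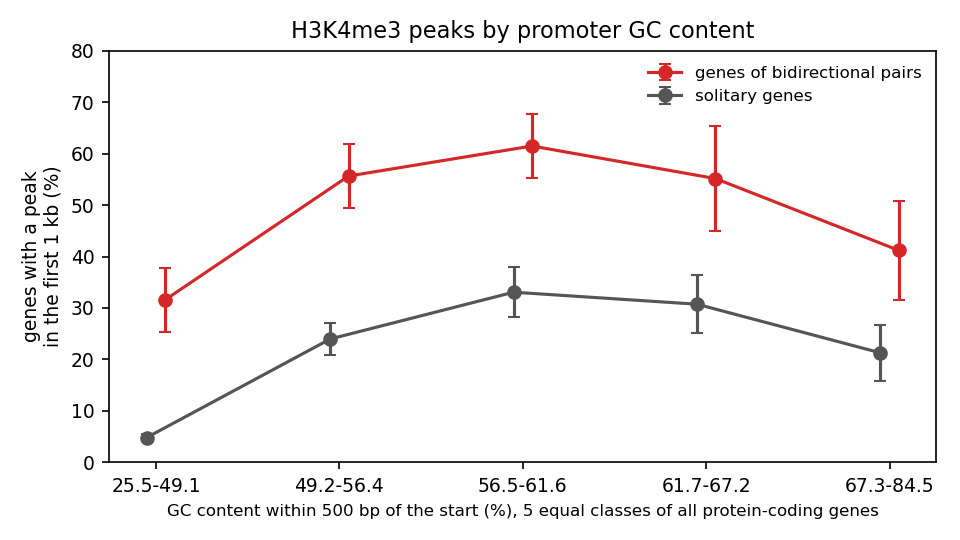
Share of genes with an H3K4me3 peak in the first 1 kb (y axis, percent) by promoter GC content (x axis, 5 equal classes of all protein-coding genes), mean and SD of 5 libraries. Genes of the pairs lie above solitary genes in each class, and both are highest in the middle class, at 61.5% and 33.1%.

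Motifs were searched from 250 bp before to 50 bp after each start, a 300 bp window, on both strands; a promoter counted once per motif, and matches of different motifs could overlap. The windows of the 2 genes of a close pair overlap, so the 2 genes are not independent. CCGGAAGT, the core bound by ETS factors, was in 14.2% of the promoters of the pairs, 3.14% of solitary promoters and 5.08% of all protein-coding promoters. GCATGCGC, bound by NRF1, a regulator of nuclear genes for mitochondrial proteins, was in 8.81%, 2.95% and 3.74%. AAGATGGCG, bound by YY1, was in 4.23%, 1.47% and 1.87%. The GC box GGGCGG, bound by SP factors, was in 72.2%, 46.5% and 52.2%, and CCAAT in 40.3%, 35.5% and 35.8%. TATAAA went the other way, with 4.99% of the promoters of the pairs, 13.2% of solitary and 10.9% of all promoters. Genes with a noncoding divergent partner resembled the pairs in the GC box (73.2%) and TATAAA (4.55%), and had the ETS motif in 9.02%, NRF1 in 5.26%, YY1 in 2.34% and CCAAT in 37.4%. Their median GC content of 64.6% and CpG ratio of 0.809 were above those of the pairs.

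Within the pairs, 5 of these motifs had lower shares in promoters without an H3K4me3 peak, and TATAAA a higher one. The ETS motif was in 15.1% of 926 genes of pairs marked in all 5 libraries and in 3% of 200 genes of pairs marked in none. The shares for NRF1 were 8.96% and 3%, and for YY1 5.62% and 0%. The shares were 43.6% and 36% for CCAAT, 69.8% and 66.5% for the GC box and 4.75% and 7.5% for TATAAA. Median GC content was 60.6% and 61.0%, and the median CpG ratio 0.780 and 0.703; the ETS, NRF1 and YY1 motifs themselves hold CpG. The 578 genes of pairs marked in 1 to 4 libraries had the ETS motif in 16.4%, NRF1 in 10.6% and YY1 in 3.46%. They had the GC box in 78.2% and TATAAA in 4.50%. The shares of ETS, NRF1, the GC box and TATAAA did not follow the number of libraries. These shares are descriptions without a test. A match is no evidence that the factor binds.

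Peak summits, the position of the highest signal in a peak, were denser between the starts than beyond them. Between the starts, which made up 9.07% of the length of the windows, lay the summits of 302, 245 and 205 different peaks in the 3 control libraries and of 266 and 252 in the 2 of HA-Bcl-xL. Counted once for each pair, so that pairs sharing a gene or a window can count the same summit again, these were 332, 264 and 229, and 290 and 278. Beyond the starts the counts over pairs were 1001, 695 and 552, and 930 and 848. Per kb and pair this was 1.89, 1.50 and 1.30 summits between the starts in control and 1.65 and 1.58 in HA-Bcl-xL cells, against 0.567, 0.394 and 0.313, and 0.527 and 0.480, beyond them. The log2 ratio of the densities averaged 1.82 and was above 0 in 5 of 5 libraries (two-sided exact permutation test within libraries, p = 0.0625, the smallest possible; adjusted 0.219). With 1 pair per locus the log2 ratio was 1.77. With pairs of overlapping 5′ ends added (1395 pairs in all), the log2 ratio was 0.99.

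The density between the starts varied with their distance. It was 5.86 ± 1.13 summits per kb (SD, n = 5) for the 144 pairs 1 to 50 bp apart, 4.34 ± 0.355 for 199 pairs at 51 to 100 bp and 2.21 ± 0.486 for 154 pairs at 101 to 150 bp. It was 1.49 ± 0.320 for 99 pairs at 151 to 200 bp, 1.48 ± 0.184 for 118 at 201 to 300 bp, 1.21 ± 0.192 for 93 at 301 to 500 bp and 0.661 ± 0.129 for 76 at 501 to 1000 bp. Library values of neighbouring classes overlapped at most steps. They separated between 51 to 100 and 101 to 150 bp, and between 301 to 500 and 501 to 1000 bp. Beyond the starts the density varied less, from 0.564 ± 0.130 in the closest to 0.317 ± 0.0835 in the widest class. The share of marked pairs also varied little, with 77.8% ± 9.94 in the closest class and 68.9% ± 7.54 in the widest.

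In pairs with gaps above 200 bp the summits were denser next to each start than midway. In the 176 pairs 201 to 400 bp apart, the 75 bp inside each start held 2.27 ± 0.283 summits per kb (SD, n = 5). The 50 bp around the midpoint held 0.523 ± 0.130, and the stretch 50 to 149 bp inside the genes 0.313 ± 0.0531. The first 50 bp of the genes was in none of these stretches, and over all genes of the pairs it held 1.51 ± 0.321. In summits per library, the stretches next to the starts had 66, 49 and 56 in control cells and 61 and 67 in HA-Bcl-xL cells. The middle had 6, 5 and 3, and 4 and 5. In the 111 pairs 401 to 1000 bp apart the same stretches held 1.50 ± 0.427 next to the starts, 0.541 ± 0.337 in the middle and 0.306 ± 0.161 inside the genes; the middle rested on 1 to 6 summits per library. Close pairs had a single maximum over both starts.

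**Figure D4:**
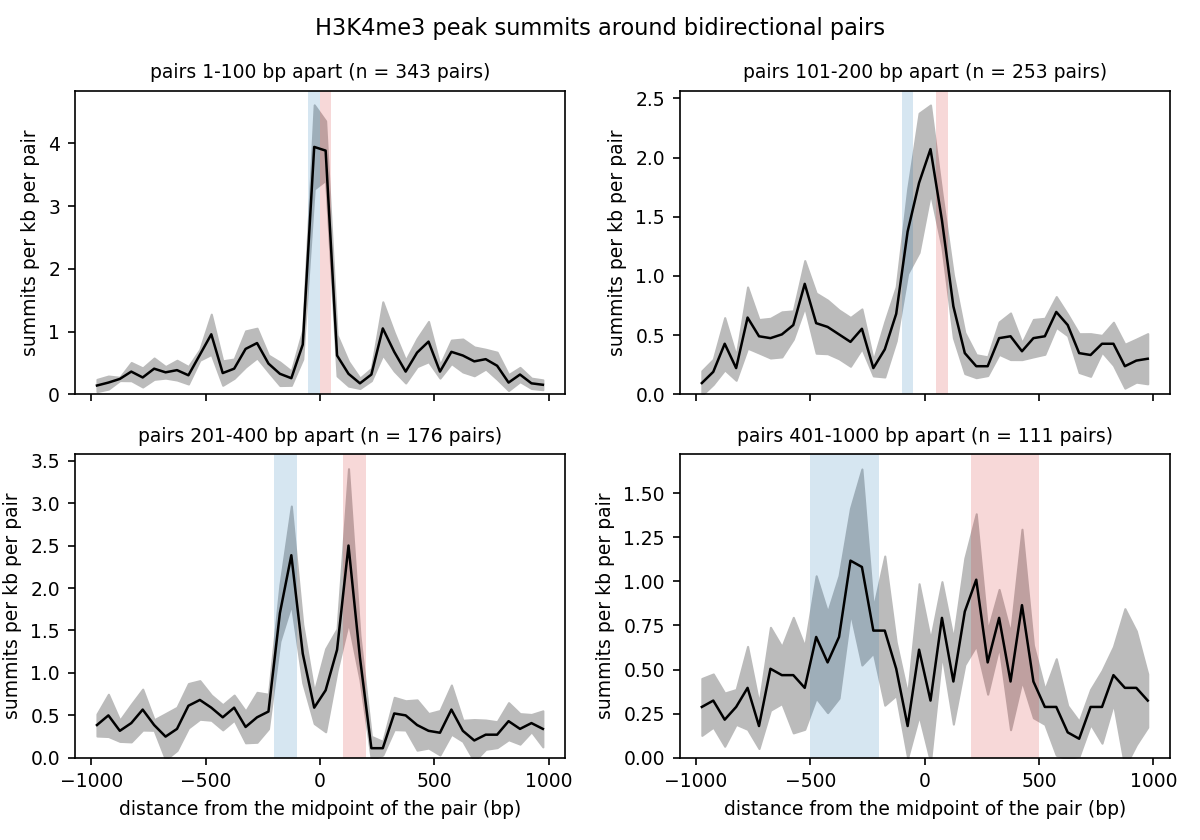
Density of H3K4me3 peak summits (y axis, per kb and pair, in 50 bp bins) by distance from the midpoint between the starts (x axis, bp; left, into the minus-strand gene) for 4 classes of pairs. Lines are means and grey bands 1 SD over 5 libraries, and blue and red bands span the possible positions of the minus-strand and plus-strand starts; pairs up to 200 bp apart show 1 central maximum and those 201 to 400 bp apart show 2.

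Aligned on each gene's own start, the summits of the pairs were densest just before it. The 50 bp before the start held 3.16 ± 0.323 summits per kb and gene (SD, n = 5) and the first 50 bp of the gene 1.51 ± 0.321. The density was 0.242 ± 0.0646 at 150 to 199 bp inside the gene, and 0.624 ± 0.164 at 200 to 299 bp and 0.598 ± 0.173 at 400 to 499 bp. Solitary genes had lower values in each of these stretches, with 0.829 ± 0.139 before the start, 0.524 ± 0.117 in the first 50 bp, 0.0912 ± 0.0138 at 150 to 199 bp, 0.196 ± 0.0504 at 200 to 299 bp and 0.234 ± 0.0590 at 400 to 499 bp. From 1000 to 301 bp upstream, the stretch that for most pairs lies inside the partner gene, the pairs had 0.475 ± 0.105 summits per kb and solitary genes 0.0368 ± 0.0114. Genes with a noncoding divergent partner lay between the 2 classes in each of these stretches. They had 2.01 ± 0.288 in the 50 bp before the start and 0.943 ± 0.293 in the first 50 bp. At 500 to 999 bp inside the gene they had 0.416 ± 0.0916, the pairs 0.338 ± 0.0765 and solitary genes 0.204 ± 0.0477. The densities are over all genes of a class, marked or not, and in close pairs 1 summit can count for both genes.

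Peaks with their summit between the starts stood higher in their lists. Rank here is the percentile of the authors' −log10 p within the library's own list. The median rank averaged 68.9 ± 1.70 (SD, n = 5) between the starts, 57.9 ± 1.28 on the minus-strand side and 56.0 ± 2.83 on the plus-strand side. Of the peaks between the starts, 21.8% ± 1.24 were in the top 10% of their list, against 11.5% ± 0.614 and 12.4% ± 1.38 on the sides. Their median width averaged 137 ± 10.6 bp, against 124 ± 5.66 and 125 ± 7.85 bp on the sides and 118 ± 6.42 bp over all peaks. In control replicate 3 it was 119 bp between the starts and 120 and 118 bp on the sides, so that the widths did not separate there.

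The 2 genes of a pair were marked about equally often, and many pairs had a peak on both sides. A peak overlapped the first 1 kb of both genes in 398, 261 and 206 pairs of the control libraries and in 339 and 314 of the HA-Bcl-xL libraries. The minus-strand gene alone had one in 169 to 180 pairs per library and the plus-strand gene alone in 151 to 179. Between 10 and 18 pairs per library had peaks between the starts only. The minus-strand gene was marked in 56.1 to 72.5% of the pairs whose plus-strand gene was, beside 42.5 to 64.2% of all pairs. Marking of both sides was found in 51.1% ± 12.2 (SD, n = 5) of pairs 1 to 50 bp apart, where 1 peak can span both starts, and in 8.16% ± 6.06 of pairs 501 to 1000 bp apart.

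The strongest summit of a pair often changed its place between libraries. It lay on the minus-strand side in 36.3% ± 0.826 of the pairs (SD, n = 5), between the starts in 29.5% ± 1.98 and on the plus-strand side in 34.2% ± 1.36. Of 476 pairs with a summit in all 5 libraries, 199 (41.8%) had the strongest in the same segment every time, 57 of them between the starts, 84 on the minus-strand and 58 on the plus-strand side. The range of its positions over the 5 libraries had a median of 215 bp. It was within 50 bp in 122 pairs and over 500 bp in 172.

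At the pairs with the highest ranks the summits repeated closely. ERCC8/NDUFAF2 (chromosome 5, starts at 60240900 and 60241004, 104 bp apart) pairs a gene of transcription-coupled DNA repair with an assembly factor of respiratory complex I. Its summit lay between the starts, 23, 27 and 24 bp from the ERCC8 start in the control libraries and 23 bp from it in both HA-Bcl-xL libraries. All 5 positions thus fell within 4 bp, close to the CCAAT matches printed above, and the ranks were 99.9, 99.6 and 99.8, and 99.7 and 99.8. HSPB6/PROSER3 (chromosome 19, starts at 36248980 and 36249044) holds a small heat shock protein gene on the minus strand. Its highest summit lay 426 to 428 bp inside PROSER3 in all 5 libraries, at ranks of 99.8 to 99.9, and a lower one 120 to 145 bp inside HSPB6 in 4 of 5.

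AREL1/FCF1 (chromosome 14, 27 bp apart) joins a ubiquitin ligase gene and a gene of ribosomal RNA processing. Its strongest summits were within 9 bp of a start in all 5 libraries, on the FCF1 side in 2 and between the starts in 3. SUGP1/MAU2 (chromosome 19, starts at 19431318 and 19431638, 320 bp apart) joins a splicing gene and the gene of a cohesin loader subunit, and it had 2 separate summits near the starts. The first lay 10 to 18 bp inside SUGP1 and the second 24 to 61 bp before the MAU2 start, and both were present in all 5 libraries at ranks from 96.2 to 99.7. A further summit lay 594 bp inside MAU2 in control replicate 1 (rank 8.4) and 616 bp inside it in HA-Bcl-xL replicate 3 (rank 24.8). TEFM/ADAP2 (chromosome 17, 106 bp apart) had its strongest summit 60 to 94 bp inside TEFM, the gene of a mitochondrial transcription elongation factor, and no summit inside ADAP2 in any library.

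The 5 pairs with the most peaks on average held 3 to 5 per library. PPP2R3C/ENSG00000258790 and RSRP1/TMEM50A averaged 4. RSRP1/TMEM50A (starts at 25664704 and 25664808 on chromosome 1), with its 2 NRF1 matches, had 4 peaks in every library: a summit 331 to 363 bp inside RSRP1, one from 46 bp before to the first base of TMEM50A, one 570 to 592 bp inside TMEM50A, and a last that varied in place. ZNF668/ZNF646, 2 zinc finger genes 182 bp apart with an ETS match between them, averaged 3.8 peaks; summits 934 to 995 bp and 447 to 470 bp inside ZNF668 recurred in all 5 libraries. DHX29/MTREX, 2 RNA helicase genes, and MCEE/MPHOSPH10 averaged 3.6. In MCEE/MPHOSPH10 a summit lay 722 to 744 bp inside MPHOSPH10, a gene of ribosome assembly, in all 5.

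**Figure D5:**
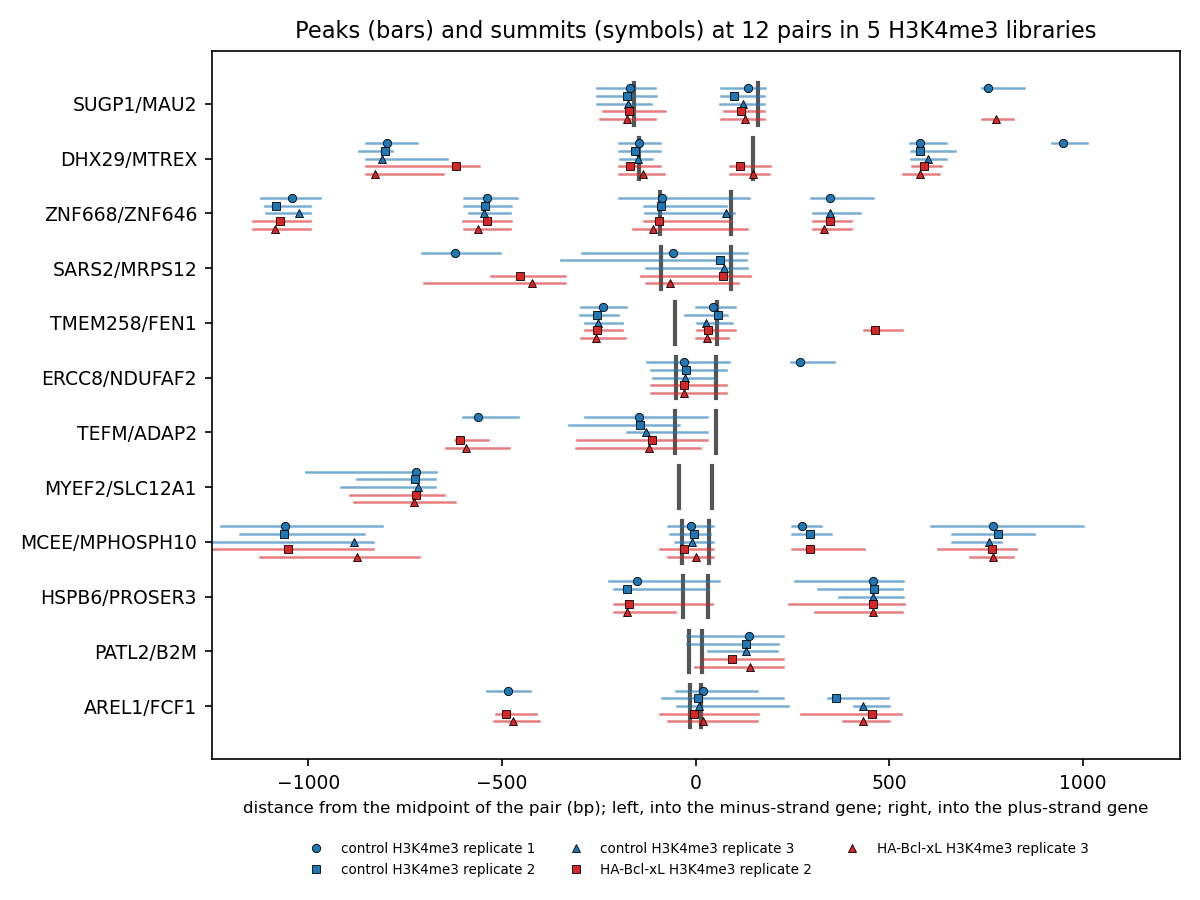
Peaks (bars) and summits (symbols) of 12 named pairs in 5 H3K4me3 libraries by distance from the midpoint between the starts (x axis, bp), with the starts as vertical lines; control libraries are blue and HA-Bcl-xL libraries red. ERCC8/NDUFAF2 has a summit between the starts in each library, SUGP1/MAU2 has 1 at each start, and MYEF2/SLC12A1 has none but inside MYEF2.

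In 62 of the 485 pairs marked in every library all summits lay on the side of 1 gene, the minus-strand gene in 40 and the plus-strand gene in 22. PATL2/B2M (chromosome 15, starts 45003521 and 45003556) was such a pair: B2M encodes the light chain of MHC class I, and its summits lay 121, 112 and 113 bp inside it in the control libraries and 76 and 122 bp in those of HA-Bcl-xL. No summit lay inside PATL2. In MYEF2/SLC12A1, whose plus-strand gene encodes a kidney salt transporter, a single summit lay 680, 682 and 674 bp inside MYEF2 in control cells, with HA-Bcl-xL cells at 681 and 684 bp. The annotated gene CTXN2 also lies over the gap of this pair. Other annotated genes likewise lie over the gaps of PPP2R3C/ENSG00000258790 (PRORP), SARS2/MRPS12 (ENSG00000269547) and AC110771.1/CYP4V2 (FLJ38576). TTC9C had a single summit 378 to 433 bp inside it in all 5 libraries, and its partners HNRNPUL2 and the readthrough gene HNRNPUL2-BSCL2, 612 and 685 bp away, had none. TEFM/ADAP2, above, was also of this kind.

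Of a list of 20 well-known gene pairs, 11 met the rule, and 7 of these were marked in all 5 libraries, where 54.9% of all pairs were. The 7 were PPAT/PAICS, SIRT3/PSMD13, TMEM258/FEN1, SARS2/MRPS12, TK1/AFMID, CDC26/PRPF4 and PREPL/CAMKMT. SARS2/MRPS12, a mitochondrial serine-tRNA ligase and a mitochondrial ribosomal protein gene 181 bp apart, had its strongest summit between the starts in all 5, at ranks of 90.3, 91.2 and 96.8 in control and 97.2 and 86.2 in HA-Bcl-xL cells. The side of the gap it favoured changed, 24 to 32 bp from SARS2 in 2 libraries and 17 to 28 bp from MRPS12 in 3. PPAT/PAICS, whose genes catalyse steps of purine synthesis, had summits inside PPAT only, including one 629 to 703 bp from its start in each library. TMEM258/FEN1, with the flap endonuclease gene of DNA replication on the plus strand, had a summit 184 to 203 bp inside TMEM258 and another from 28 bp before to 2 bp inside FEN1 in all 5.

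TK1/AFMID pairs thymidine kinase, of nucleotide salvage, with a gene of tryptophan breakdown. Its summits clustered at AFMID, from 21 bp before to 49 bp inside that start in all 5 libraries, and 1 more lay 147 bp inside TK1 in control replicate 1. NPAT/ATM, which joins a regulator of histone gene transcription and a DNA damage kinase gene 406 bp apart, was marked in control replicates 1 and 2 and HA-Bcl-xL replicate 3. The collagen pairs COL4A4/COL4A3 and COL4A6/COL4A5, which encode chains of basement membrane type IV collagen, had no peak in any library.

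The mean shares of marked pairs per library in gene groups are given beside the 74.4% ± 7.64 (SD, n = 5) of all pairs, and the shares marked in all 5 libraries beside the 54.9% (485 of 883) of all pairs, without a test. All 18 pairs with a mitochondrial ribosomal protein gene were marked in at least 1 library and 15 (83.3%) in all 5, a mean of 96.7% ± 4.97. By library 18, 16 and 17 of the 18 were marked in control and 18 and 18 in HA-Bcl-xL cells. Of 16 pairs with an NDUF gene, for a subunit or an assembly factor of respiratory complex I, 14 (87.5%) were marked in all 5, with a mean share per library of 93.8% ± 4.42. Of 15 with a heat shock, DNAJ or chaperonin gene, 13 (86.7%) were marked in all 5, with a mean share per library of 92.0% ± 2.98. NDUFS1/EEF1B2 and MRPL36/NDUFS6 had 2 to 4 peaks in each library. The 3 pairs with an aminoacyl-tRNA synthetase gene, SARS2/MRPS12, LYRM4/FARS2 and RARS2/ORC3, were marked in all 5. These groups share pairs, such as MRPL36/NDUFS6 and TCP1/MRPL18, and some pairs of a group share a gene and the same peaks. By separate loci, 13 of 16 with a mitochondrial ribosomal protein gene, 13 of 15 with an NDUF gene and 12 of 14 of the heat shock group were marked in all 5, beside 442 of 821 loci of all pairs.

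Of 37 pairs with a DNA repair gene, 21 (56.8%) were marked in all 5 libraries, close to the 54.9% of all pairs, 14 in 1 to 4 and 2 in none; the mean share was 79.5% ± 13.0 (SD, n = 5). By library 33, 32 and 21 of the 37 were marked in control and 30 and 31 in HA-Bcl-xL cells. OSGEP/APEX1, with the main abasic site endonuclease, had 4, 4 and 2 peaks in control and 4 and 4 in HA-Bcl-xL cells. PCNA/CDS2, XPC/LSM3, PMS2/AIMP2 and PALB2/DCTN5 were marked in all 5, and RHBDF1/MPG and RAD51D/FNDC8 in none. Of 6 pairs with a proteasome gene 4 (66.7%) were marked in all 5, with a mean share of 76.7% ± 9.13, PSMD10/ATG4A in 3 and PSMA1/PDE3B in none.

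Pairs of replication-dependent histone genes and of ZNF zinc finger genes had lower mean shares per library than all pairs, 60.0% ± 14.9 and 61.3% ± 9.60 (SD, n = 5), a difference that was not tested. Of 12 histone pairs 5 (41.7%, beside 54.9% of all pairs) were marked in all 5 libraries, 6 in 1 to 4 and 1, H2AC1/H2BC1, in none. By library 10, 6 and 6 of the 12 were marked in control and 8 and 6 in HA-Bcl-xL cells. The 10 of control replicate 1 were not a lower share than the 728 of 883 of all pairs there. H2BC21/H2AC20, H2AC25/H2BC26, H2BC11/H2AC11, H2BC12/H2AC12 and H2AC15/H2BC15 were the 5. Of 30 ZNF pairs 11 (36.7%) were marked in all 5, 12 in 1 to 4 and 7 in none, and by library 22, 16 and 15 in control and 19 and 20 in HA-Bcl-xL cells; ZNF829/ZNF568 and ZNF597/NAA60 were among the 7. HSPA1L/HSPA1A was the only pair of the heat shock group without a peak. Values at the histone genes and at HSPA1A are uncertain, since they have near-identical copies and how reads that map to several places were treated is not given in the sources used here. The groups were not tested against each other.

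The 2 lines were compared in 3 measures by an exact permutation test, whose smallest p is 0.2 with 3 libraries against 2, so that no difference could pass 0.05. The mean share of marked pairs was higher in HA-Bcl-xL cells by 4.85 percentage points (two-sided exact permutation test, p = 0.8; adjusted 0.8). Leaving out control replicate 3 gave 0.00, leaving out control replicate 1 gave 9.85, and leaving out HA-Bcl-xL replicate 2 gave 2.53. With lists of equal length it was 1.70. The share of pairs with both genes marked was higher by 4.32 percentage points (exact permutation test, p = 0.8; adjusted 0.8). It was 1.42 with lists of equal length, 10.5 without control replicate 1, 2.77 without control replicate 2, 2.91 without HA-Bcl-xL replicate 2 and −0.34 without control replicate 3.

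The share of summits in the windows that lay between the starts was 24.9%, 27.5% and 29.3% in the control libraries and 23.8% and 24.7% in those of HA-Bcl-xL. The lines did not overlap, and the mean was lower in HA-Bcl-xL cells, with a difference of −3.02 percentage points (two-sided exact permutation test, p = 0.2, the smallest possible; adjusted 0.28). Within the control line this share was lowest in the library with the most peaks and highest in that with the fewest. With lists of equal length the difference was −2.72, and without control replicate 3 it was −1.99. It was −5.07 with a reach of 500 bp into each gene. The lines overlapped with canonical starts, where it was −2.27, and with pairs of overlapping 5′ ends added, where it was −1.49 (exact permutation test, p = 0.4 for both).

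Few pairs were marked in 1 line only. In both HA-Bcl-xL and none of the control libraries there were 4 pairs (0.453%), where over all protein-coding genes 0.846% had such a pattern within 1 kb of the start, over solitary genes 0.980% and over the genes of the pairs 0.528%. They were C10orf88/PSTK, HMGN5/SH3BGRL, AC110771.1/CYP4V2 and DCUN1D2/TMCO3. C10orf88/PSTK, with the gene of a kinase that modifies selenocysteine tRNA, had a summit 86 bp inside C10orf88 (rank 63.2) in replicate 2 and one 46 bp inside PSTK (rank 44.8) in replicate 3. HMGN5/SH3BGRL, with a nucleosome-binding protein gene, had summits 14 and 52 bp before SH3BGRL at ranks of 60.7 and 38.8. The ranks were 12.9 and 17.5 at AC110771.1/CYP4V2 and 16.0 and 2.1 at DCUN1D2/TMCO3.

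In all 3 control and neither HA-Bcl-xL library there was 1 pair (0.113%), NUP62CL/DNAAF6, against 0.249% of all protein-coding genes, 0.223% of solitary genes and 0.117% of the genes of the pairs. Its highest ranks were 46.8, 4.7 and 15.8. Both counts changed when single libraries were left out, which loosens the rule, so they could only stay equal or rise. The HA-Bcl-xL count of 4 became 27 with control replicate 1 left out and 8 with control replicate 2 left out; it became 10 and 16 when HA-Bcl-xL replicate 2 or 3 was left out. The control count of 1 was 2, 6 and 4 without control replicates 1, 2 and 3, and 11 and 5 without HA-Bcl-xL replicates 2 and 3. The shares over all protein-coding genes with a library left out were not computed. These counts therefore do not show whether the pairs differ from other promoters.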

How the data were processed

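Each of the 11 files was a narrowPeak list, so peaks had been called per library. Per the submitters' processing notes, the tools were bcl2fastq 2.20, Trimmomatic 0.36, Bowtie2 2.2.9, MACS2 2.1.1 and deepTools 3.5.1, with hg19 (GRCh37). For every peak the deposited list holds the authors' score, fold enrichment, −log10 p, −log10 q and summit offset; no peak had a q above 0.01. Peaks were ranked and filtered on these values inside each list only. Gene starts came from GENCODE 44 lifted to GRCh37, and the sequences from the GRCh37 genome. Coordinates are 1-based.

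Overlaps of at least 1 bp and summits were counted per library with Python 3.11.15, numpy 2.4.6 and pandas 2.3.3, and groups compared by exact permutation tests over libraries (scipy 1.17.1). Figures used matplotlib 3.10.9. In a test on simulated peaks, 100% of 613 planted summits returned to their segment. The lists hold no depth, and nothing says that replicates came from separate cultures, so p-values measure the spread between these libraries, which may be technical. Named pairs were listed well-known pairs, the 5 of highest mean rank, the 5 with the most peaks, the up to 5 highest-ranked found in 1 line only, the 5 highest-ranked with summits on 1 side, and pairs with peaks in 2 or more IgG libraries (0 found); pairs named within gene groups, among unmarked pairs or for IgG were picked after their values were seen. The members, gene lists and tests were chosen with earlier results of these data known. PECAM1, a marker on the list, found no match in the annotation. One of the listed well-known pairs is not reported here.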

Additional observations from a re-analysis of the deposited data

How the results depend on the processing

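The other settings were peaks with −log10 q from 5 upward, lists cut to equal length, summits in place of overlap, starts at most 500 bp apart, a 500 bp reach, canonical starts (974 pairs, 584 marked in every library), overlapping 5′ ends added, removal of peaks over IgG peaks, and, chosen after seeing the data, 1 pair per locus. Other genes for comparison, GC classes and the replicate block were also run. No test could pass 0.05 in any setting, so only directions and counts were compared. All 67 differences and ratios kept their direction under these settings, with sizes that could change several times over. Of 27 counts, 20 stayed within 1.5 times the first value; pairs marked in every library, 485, ranged from 347 (stricter q) to 720 (overlapping ends). The other 7 were counts of pairs in 1 line only. The HA-Bcl-xL count of 4 was 12 with the stricter q, 8 with equal lists and 9 with the 500 bp reach. The control count of 1 was 0 with the stricter q and with the 500 bp reach, 3 with summits and 4 with overlapping ends. The cause of these shifts was not tested, and the matching shares over all protein-coding genes were not computed.

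Leaving out each library in turn, 34 of 36 differences and ratios kept their direction, and 6 of 15 counts stayed within 1.5 times. The counts could only stay equal or rise, since leaving out a library loosens the rule behind them. The ranges were 4 to 27 pairs for HA-Bcl-xL only, 2 to 11 for control only, and −0.34 to 10.5 percentage points for the line difference in pairs with both genes marked, the reversed value being −0.34 without control replicate 3. The line difference in marked pairs ranged from 0.00, without control replicate 3, to 9.85. Pairs marked in every remaining library numbered 487 to 565.

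The labels do not say that a replicate number marks a shared batch or culture, so libraries were not treated as paired. Deviations of same-numbered H3K4me3 libraries correlated at −0.01 and 0.02 across lines, but with 2 HA-Bcl-xL libraries these are mirror images and do not decide the pairing, and IgG libraries were not checked. With the replicate block, which leaves control replicate 1 out of line comparisons, the line differences were 9.85 percentage points in marked pairs, −4.20 in summits between starts and 10.5 in pairs with both genes marked, and the antibody differences 72.1 and 77.3. Depth is unknown, so an unmarked pair was only not called.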
